A study of Mus musculus with 4 samples.

Results

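Gzmk CD8 T cells are the non-cycling CD8 T cells of these tumours that carried at least 1 unique molecular identifier (UMI, a count of 1 captured RNA molecule) of Gzmk and none of Ccl3. They were taken from single-cell RNA libraries of subcutaneous MC38 tumours, MC38 being a mouse colon carcinoma line grown here in C57BL/6J mice aged 8 weeks. The tumours grew from MC38 cells with Hnrnpa2b1 knocked out (KO, 2 tumours) or from MC38 cells that kept the gene (WT, 2 tumours), so the T cells themselves came from hosts with an intact Hnrnpa2b1. All tumours were injected in the left flank and digested with collagenases, dispase and DNase, and no sort is stated. The labels do not state the time of excision, the sex of the mice or whether the KO line is 1 clone. Tumour numbers are not said to mark separate experiments, so p-values of KO against WT measure the spread between these tumours. Comparisons of cell classes had tumour as a block, and their p-values measure how the class difference spread over these tumours.

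A kept barcode counted as a member if it passed 5 conditions on its own UMIs: at least 1 of Cd8a or Cd8b1, at least 1 of Cd3d, Cd3e or Cd3g, none of Cd4 and Foxp3, fewer than 3 over the cycling genes Mki67, Top2a, Nusap1, Pclaf and Hist1h1b, and Gzmk with no Ccl3. Cells with 20 or more UMIs per 10000 of 7 tumour markers had been set aside. There were 390 members among 42710 kept cells of 43494 barcodes, with 213 and 147 in KO tumours 1 and 2 and 9 and 21 in WT tumours 1 and 2. No member barcode was shared between libraries. The same gate held 212 and 160 KO and 8 and 27 WT cells with a Ccl3 UMI, here called Ccl3 CD8 T cells, and 528 and 543 KO and 77 and 101 WT cells with neither gene, here called remaining CD8 T cells.

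Granzyme K, the product of Gzmk, is a serine protease stored in the granules of cytotoxic lymphocytes together with the other granzymes and perforin. CD8 T cells that express it are known from tumours and inflamed tissue of mice and humans, where they are often described as effector memory or early dysfunctional cells that stand between Tcf7-expressing cells and terminally exhausted ones. Ccl3 encodes a chemokine that CD8 T cells make soon after antigen stimulation, so a gate without Ccl3 leaves out cells that were caught making it. In GRCm38, Gzmk spans positions 113171608 to 113225908 of chromosome 13 on the minus strand, and its neighbour Gzma spans 113093825 to 113100981 on the same strand.

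The libraries held 114136609 and 132490304 UMIs in KO tumours and 153162562 and 123655955 UMIs in WT tumours, and pairs of libraries shared between 23 and 43 barcodes. Hnrnpa2b1 in tumour-marker cells stood at 377 and 311 CPM (UMIs of a gene per 1000000 UMIs of its class in that tumour) in KO tumours and at 585 and 598 CPM in WT tumours. The KO value was lower by 0.83 on the log2 scale (SE 0.13, edgeR quasi-likelihood test, Benjamini-Hochberg adjusted p = 0.0287), and the call was lost without KO tumour 1 (adjusted p = 0.083) or KO tumour 2 (adjusted p = 0.109). Reads of the gene remained in KO tumours, and the labels do not say where the edit lies. Members, which are host cells, held 488 and 386 CPM of Hnrnpa2b1 in KO tumours and 374 and 444 CPM in WT tumours, so the groups overlapped.

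The depth of the members set what could be read from them. Their summed counts came to 1233106 and 648090 UMIs in KO tumours against 21387 and 85518 UMIs in WT tumours. A single UMI was therefore worth 0.81 and 1.54 CPM in KO members and 46.8 and 11.7 CPM in WT members. A gene with no UMI could still have stood at up to 2.43 and 4.63 CPM in KO members and 140 and 35.1 CPM in WT members (3 counts). A member had a median of 4735 and 3634 UMIs in KO tumours and of 1900 and 2844 UMIs in WT tumours. Values from WT tumour 1, with 9 members, rest on a handful of molecules for all but the most abundant genes, and their intervals cover counting error only.

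The gate used Cd8a, Cd8b1 and the Cd3 genes, so 5 T cell markers outside it were checked, and Trac, Trbc1, Trbc2, Lck and Cd2 were each detected in the members of every tumour. Trbc2, a constant segment of the receptor beta chain, was found in 96.2% and 95.9% of members in KO tumours and in 88.9% and 90.5% in WT tumours. Trac, that of the alpha chain, was found in 84.0% and 76.9% of KO members and in 55.6% and 52.4% of WT members.

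Markers of other lymphocytes were present at lower sums. NK cell markers came to 463 and 1031 CPM in KO members, with 6 and 5 of 7 detected, and to 281 and 175 CPM in WT members, with 2 and 4 detected, and Klra8 was at 0 in every tumour. CD4 and regulatory T cell markers came to 390 and 360 CPM in KO and 93.5 and 210 CPM in WT members, with 5 and 5 of 7 detected in KO, 2 and 4 in WT members, and Cd4 and Foxp3 at 0 by the gate. Gamma-delta T cell markers came to 18.7 and 37.0 CPM in KO members, with 5 of 8 detected and Trdv4 and Il17a at 0, and none was detected in WT members. B and plasma cell markers came to 56.0 and 41.7 CPM in KO members, with 4 and 3 of 7 detected, and to 46.8 and 0 CPM in WT members, with 1 and 0 detected, and Cd79a and Ms4a1 were at 0 in every tumour. The part of such cells in the results was not tested.

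The values that chose the cells are a description with no test. Most members passed with a Gzmk count of exactly 1 UMI, namely 61.97% and 63.95% of members in KO tumours and 77.78% and 85.71% in WT tumours. The highest Gzmk count in a member was 9 and 6 UMIs in KO tumours and 3 UMIs in each WT tumour. Just outside the gate lay 35 and 14 KO cells and 0 and 2 WT cells that had Gzmk and exactly 1 Ccl3 UMI. A further 70 and 49 KO cells and 3 and 5 WT cells had Gzmk and no Ccl3 but passed the limit on cycling genes.

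A Gzmk UMI was more frequent in CD8 T cells than in cells that should lack it. Among non-cycling CD8 T cells 29.2% and 22% in KO tumours and 10.6% and 16.8% in WT tumours had one, at median depths of 4727 and 3509 UMIs in KO and 2324 and 2518 UMIs in WT tumours. Among C1q macrophages 0.321% and 0.354% of cells in KO tumours and 0% and 0.145% in WT tumours had a Gzmk UMI, at median depths of 8369 and 7415 UMIs in KO and 6472 and 4235 UMIs in WT tumours. The WT tumour 1 value was 0 of 1016 cells, and its exact 95% interval reached 0.362%. Among tumour-marker cells 3.26% and 0.87% in KO tumours and 0.15% and 0.03% in WT tumours had a Gzmk UMI. Their median depths were 41089 and 33102 UMIs in KO and 14233 and 15249 UMIs in WT tumours. Among other CD3 cells the shares lay between 1.59% and 1.83% in the 4 tumours. Among cycling CD8 T cells 41.5% and 38.3% in KO tumours and 5.56% and 17.1% in WT tumours had one, at median depths of 10415 and 8234 UMIs in KO and 6725 and 6328 UMIs in WT tumours.

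The other 4 markers of the label were Ly6c2, Cxcr3, Itga1 and Gramd3, and they are given with no test. Ly6c2, a surface antigen of memory and effector CD8 T cells whose counts may be shared with its near-identical neighbour Ly6c1, was found in 78.4% and 78.9% of members in KO tumours and in 66.7% and 85.7% in WT tumours. Its level was 1067 and 1275 CPM in KO members and 2385 and 596 CPM in WT members. Gramd3 was found in 83.1% and 72.1% of KO members and in 33.3% and 23.8% of WT members. Cxcr3, the receptor for the interferon-induced chemokines Cxcl9 and Cxcl10, was found in 30.0% and 23.8% of KO members and 33.3% of WT members in tumour 1, but in no member of WT tumour 2. Itga1, the alpha chain of a collagen-binding integrin of tissue-resident T cells, was found in 37.1% and 33.3% of KO members and in 11.1% and 23.8% of WT members.

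The levels of these markers were also set beside those in the other non-cycling CD8 T cells, as a description. Against Ccl3 CD8 T cells the log2 differences were 1.42 for Ly6c2, 1.38 for Cxcr3, 0.98 for Itga1 and 0.94 for Gramd3. Against the remaining CD8 T cells they were 0.64, 0.38, 0.35 and -0.06 in the same order. Of the 79 and 49 KO members with Itga1, 67 and 44 also had Ly6c2, which was found in 167 of 213 and 116 of 147 KO members in all. Cxcr3 was found with Itga1 in 33 and 11 KO members.

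Gzmk CD8 T cells took a larger share of KO tumours than of WT tumours. They made up 2.27% and 1.55% of kept cells in KO tumours and 0.0712% and 0.187% in WT tumours. Every KO tumour lay above both WT tumours, and the means were 1.91% ± 0.514 in KO and 0.129% ± 0.082 in WT tumours (SD, n = 2 each), a ratio of 14.8. The log2 ratio was 3.89 (SE 0.56, edgeR on cell numbers of 8 classes, adjusted p = 0.00653). Without KO tumour 1 it was 3.58 (adjusted p = 0.115) and without KO tumour 2 it was 4.14 (adjusted p = 0.0940), so the call was lost without either KO tumour. Leaving tumour-marker cells out of the total gave 3.58 with the call kept (adjusted p = 7.23e-06).

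**Figure D1:**
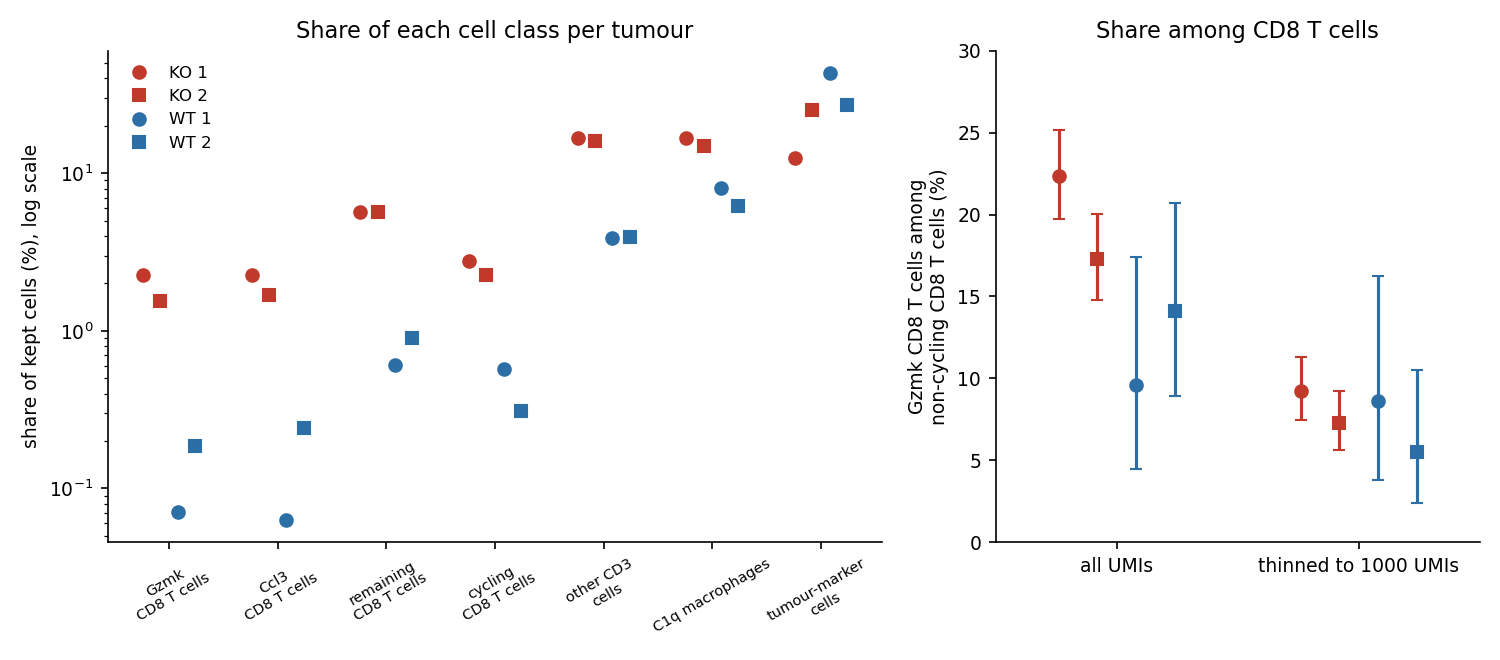
Left, the share of kept cells in each class (y axis, percent, log scale) for KO tumours 1 and 2 (red) and WT tumours 1 and 2 (blue); right, Gzmk CD8 T cells as a percent of non-cycling CD8 T cells, from all UMIs and from 1000 UMIs per cell, with exact 95% binomial intervals. KO tumours lie above WT tumours for all 4 kinds of CD8 T cell, and at equal depth the shares among CD8 T cells overlap.

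The rise in share was common to the T cells of these tumours, as the plot of class shares shows. Ccl3 CD8 T cells had a log2 ratio of 3.71 (adjusted p = 0.00907), remaining CD8 T cells 2.91 (adjusted p = 0.00307), cycling CD8 T cells 2.50 (adjusted p = 0.00700) and other CD3 cells 2.07 (adjusted p = 0.00307) in edgeR's test. C1q macrophages rose by 1.15 (adjusted p = 0.0158). Whether the members' ratio differed from that of the other CD8 T cells was asked through their share among non-cycling CD8 T cells. That share was 22.4% and 17.3% in KO tumours and 9.57% and 14.1% in WT tumours, and the groups did not overlap. The means were 19.8% ± 3.58 in KO and 11.8% ± 3.20 in WT tumours (SD, n = 2 each). The difference was 7.99 percentage points, with a two-sided exact permutation p of 0.333, the smallest that 2 against 2 tumours allow.

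Depth moved together with that share. Non-cycling CD8 T cells had a median of 4727 and 3509 UMIs in KO tumours and 2324 and 2518 UMIs in WT tumours. When every cell was thinned to 1000 UMIs, which left out 12 and 9 KO cells and 1 and 3 WT cells, members made up 9.25% and 7.25% of the class in KO tumours and 8.60% and 5.48% in WT tumours. The groups then overlapped, with a difference of 1.21 percentage points (exact permutation p = 0.667). The level of Gzmk over all non-cycling CD8 T cells, a class that it did not choose, was 87.7 and 84.4 CPM in KO tumours and 51.1 and 55.6 CPM in WT tumours. Both KO tumours were above both WT tumours, but the log2 difference of 0.59 (SE 0.22) did not pass the test (edgeR adjusted p = 0.170).

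Members carried RNA of the cytotoxic granule in every tumour. Nkg7, a granule membrane protein, was detected in 97.2% and 98.6% of members in KO tumours and 88.9% and 95.2% in WT tumours. Ccl5, a chemokine stored by memory and effector CD8 T cells, was found in 93.4% and 91.2% of KO members and 100% and 90.5% of WT members, and was the fifth most abundant transcript by mean CPM outside mitochondrial and ribosomal protein genes. Gzmb was found in 74.6% and 69.4% of KO members and in 33.3% and 71.4% of WT members. Prf1, which encodes perforin, was found in 71.4% and 58.5% of KO members and in 44.4% and 38.1% of WT members. Gzma was found in 32.4% and 38.1% of KO members and in 55.6% and 42.9% of WT members. Of the KO members with Gzma, 60 of 69 and 42 of 56 also had Gzmb.

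RNA of effector cytokines was found in a minority of members. Ifng, the gene of interferon gamma, was found in 23.5% and 17.7% of KO members and in 11.1% and 28.6% of WT members. Tnf was found in 8.0% and 6.8% of KO members and in 11.1% and 4.8% of WT members. Ccl4, a close relative of the gate gene Ccl3, was still found in 46.0% and 34.0% of KO members and in 22.2% and 33.3% of WT members.

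Detection varied between genes of tissue entry and retention. Cxcr6, the receptor that holds T cells near Cxcl16-producing cells, was found in 82.6% and 73.5% of KO members and in 44.4% and 42.9% of WT members. Ccr2 was found in 74.6% and 57.1% of KO members and 33.3% and 42.9% of WT members. Itgae, the integrin chain of epithelial resident T cells, was found in 2.3% and 3.4% of KO members, and in 0% and 4.8% of WT members. Klrd1, an NK receptor chain also made by effector CD8 T cells, was found in 85.0% and 75.5% of KO members and in 33.3% and 42.9% of WT members.

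Detection also varied among the 21 genes listed for inhibitory receptors and exhaustion. Ctla4, an inhibitory receptor of activated T cells, was found in 63.4% and 57.1% of KO members and in 33.3% and 23.8% of WT members, and Tox2 in no member of any tumour. Pdcd1, the gene of PD-1, was found in 47.9% and 46.3% of KO members and in 11.1% and 38.1% of WT members. Havcr2, the gene of TIM-3, was found in 46.5% and 42.9% of KO members and in 11.1% and 23.8% of WT members. Both occurred together in 58 and 41 KO members and in 1 and 4 WT members. Tigit and Tox were rare, at 5.2% and 6.1% of KO members for Tigit and 7.5% and 4.1% of KO members for Tox, with WT members at 0% and 4.8% for each. Il7r, the receptor for interleukin 7, was found in 74.2% and 76.9% of KO members and in 55.6% and 47.6% of WT members.

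Tcf7, the transcription factor of stem-like T cells, was found in 19.7% and 13.6% of KO members and in 33.3% and 19.0% of WT members. It shared a cell with Havcr2 in 11 and 6 KO members and in 0 of 9 and 0 of 21 WT members. A detection share of this kind rises with depth, and KO members were deeper than WT members, so the shares are given as levels per tumour and not as differences between groups.

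**Figure D2:**
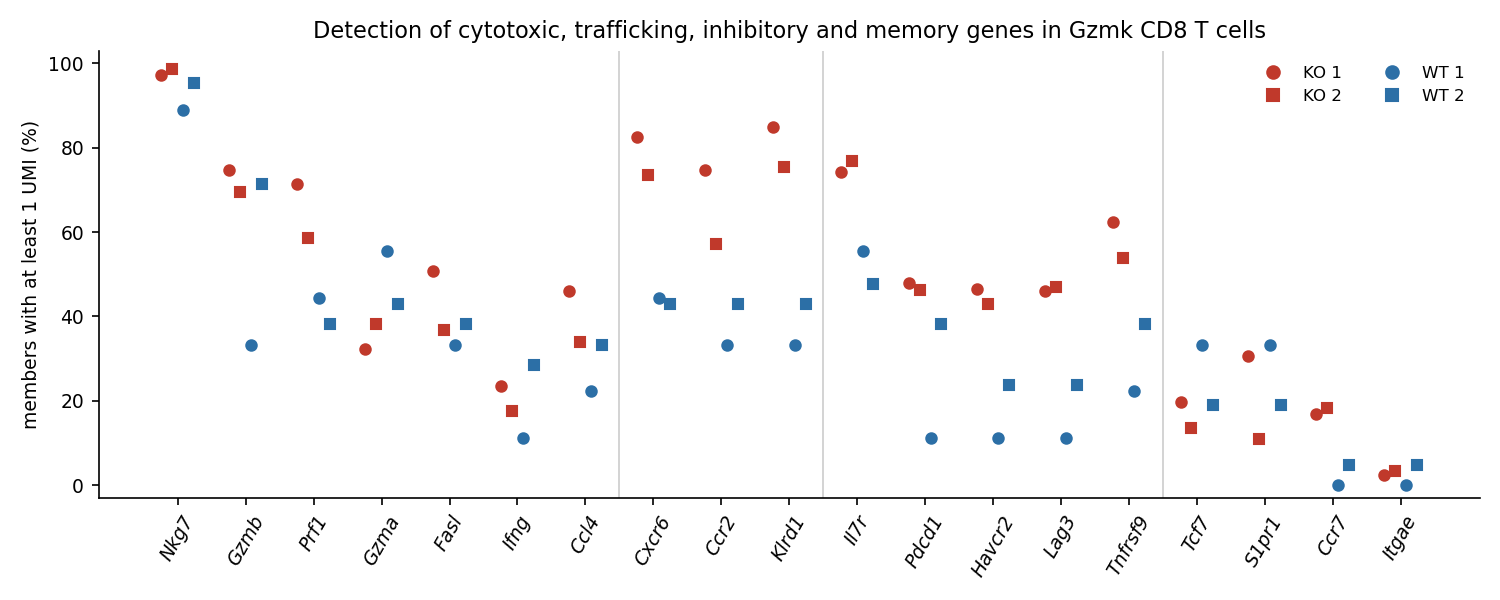
Percent of Gzmk CD8 T cells with at least 1 UMI of each gene (y axis), in KO tumours 1 and 2 (red) and WT tumours 1 and 2 (blue), grouped from left to right as cytotoxic genes, trafficking and NK receptors, Il7r with inhibitory and costimulatory receptors, and memory or residency genes. Nkg7 lies near the top in every tumour, and Itgae lies below 5% in every tumour.

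Genes differed in how they varied with the number of Gzmk UMIs, which is described here with no test. Gzma stood at 908 CPM in the 81 members of KO tumour 1 with 2 or more Gzmk UMIs, against 353 CPM in the 132 members with 1 Gzmk UMI. In KO tumour 2 it stood at 2565 CPM in 53 members, against 496 CPM in 94 members. Gzmb was also higher, at 1723 against 1196 CPM in KO tumour 1 and 1831 against 1286 CPM in KO tumour 2. Ly6c2, Itga1 and Havcr2 differed less, with Havcr2 at 214 against 206 CPM in KO tumour 1 and at 226 against 252 CPM in KO tumour 2. Ccl5 was higher in KO tumour 1, at 7628 against 6350 CPM, and lower in KO tumour 2, at 4790 against 7791 CPM. Tcf7 was lower in both, at 47.7 against 54.6 CPM in KO tumour 1 and 10.4 against 63.8 CPM in KO tumour 2. In WT tumours, with 2 and 3 members of 2 or more Gzmk UMIs, Gzma was lower in these, at 1338 against 3372 CPM in WT tumour 1 and 95.8 against 1315 CPM in WT tumour 2.

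Gzmk CD8 T cells held less cytokine, chemokine and receptor-induced RNA than Ccl3 CD8 T cells, and more RNA of some interferon-stimulated genes. The comparison asks what else separates members from the nearest other CD8 T cells. It was fitted on 8 sums with tumour as a block, those of WT tumour 1 holding 9 members and 8 Ccl3 cells. Of 5063 genes tested outside the gate genes and markers, 30 rose and 111 fell in members (2.78% in all, 0.593% higher and 2.19% lower). The gate fixes Gzmk and Ccl3 in members, but in Ccl3 CD8 T cells it sets Ccl3 and leaves Gzmk free. Of Ccl3 CD8 T cells, 30.7% and 25.0% in KO and 12.5% and 14.8% in WT tumours also had a Gzmk UMI. The classes are thus separated by Ccl3 in every cell and by Gzmk in part. Every other gene's difference is a measure of how often it was found with them. Members had median depths of 4735 and 3634 UMIs in KO and 1900 and 2844 UMIs in WT tumours, against 5820 and 4118 UMIs in KO and 2849 and 3254 UMIs in WT tumours for Ccl3 CD8 T cells.

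Chemokine genes fell furthest. Ccl4 stood at 397 and 225 CPM in members of KO tumours and 93.5 and 199 CPM in members of WT tumours. In Ccl3 CD8 T cells it stood at 4169 and 3189 CPM in KO and 6142 and 9969 CPM in WT tumours. Members were lower in every tumour, with a log2 fold change of -4.26 (SE 0.27, edgeR adjusted p = 2.68e-10). Ccl1, a chemokine of activated T cells, stood at 4.05 and 6.17 CPM in KO members and 0 and 35.1 CPM in WT members, against 143 and 495 CPM in KO and 3071 and 556 CPM in WT Ccl3 cells, a log2 fold change of -5.58 (SE 0.34, edgeR adjusted p = 2.68e-10). Xcl1, which attracts cross-presenting dendritic cells, fell by 3.37 on the log2 scale (SE 0.40, edgeR adjusted p = 2.97e-05). In all, 4 of 7 chemokine genes fell, with a median of -1.84 against 0 over all genes tested. Ccl9, the fourth of them, is also made by myeloid cells and fell in 2 of 4 tumours.

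Cytokine and cytotoxic genes fell with them. Ifng stood at 119 and 72.5 CPM in KO members and 93.5 and 164 CPM in WT members. In Ccl3 cells it stood at 1021 and 1158 CPM in KO and 2722 and 5376 CPM in WT tumours, so that the classes did not overlap in any tumour. Its log2 fold change was -3.97 (SE 0.25, edgeR adjusted p = 2.68e-10), and that of Tnf was -1.504 (SE 0.31, edgeR adjusted p = 0.00682). Prf1 fell by 1.09 (SE 0.25, edgeR adjusted p = 0.0184) and Zeb2, a transcription factor of terminal effector cells, by 1.11 (SE 0.21, edgeR adjusted p = 0.00410). DESeq2 called Zeb2 (DESeq2 adjusted p = 0.0149) but not Prf1 (DESeq2 adjusted p = 0.211). Of 21 cytotoxic effector genes tested 7 fell, the others being Gzmb, Srgn and Serpinb6b, and the median was -0.43.

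Genes induced by the T cell receptor also fell. Of 21 tested 7 were lower, namely Egr3, Nr4a1, Nr4a3, Nfkbid, Irf8, Tnfrsf9 and Tnfrsf4, with a median of -0.65 and with 1 gene of the 21 above 0. Nr4a3, an orphan nuclear receptor that marks receptor signalling, stood at 201 and 168 CPM in KO members and 46.8 and 35.1 CPM in WT members, against 414 and 397 CPM in KO and 209 and 358 CPM in WT Ccl3 cells. Its log2 fold change was -1.38 (SE 0.24, edgeR adjusted p = 0.00205). Tnfrsf9, which encodes the costimulatory receptor 4-1BB, fell by 1.39 (SE 0.27, edgeR adjusted p = 0.00426) and Egr3 by 1.84 (SE 0.28, edgeR adjusted p = 0.000697). Of 12 genes of inhibitory receptors and exhaustion, 5 fell: Nr4a2 by 1.45, Rgs16 by 1.44, Cd160 by 1.15, Lag3 by 0.90, and Havcr2. Gapdh and Hk2, enzymes of glycolysis, fell by 0.60 and 0.75 on the log2 scale, and were the called genes among 23 of glycolysis and hypoxia. DESeq2 called none of Lag3, Cd160, Tnfrsf4 and Hk2 (DESeq2 adjusted p = 0.159, 0.0527, 0.211 and 0.343). It did call Nr4a3, Tnfrsf9, Egr3, Nfkbid, Nr4a2, Rgs16 and Gapdh.

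Interferon-stimulated genes were among those that rose. Of 23 type I interferon response genes tested, 5 rose (Ifit1, Ifi206, Ifi208, Ifi209 and Isg20) and 21 had a log2 fold change above 0, with a median of 0.50. Isg20, an interferon-induced exonuclease, stood at 64.9 and 97.2 CPM in KO members and 140 and 23.4 CPM in WT members, against 37.1 and 27.6 CPM in KO and 0 and 18.9 CPM in WT Ccl3 cells. It was higher in members of every tumour, by 1.23 on the log2 scale (SE 0.28, edgeR adjusted p = 0.0160), and DESeq2 did not call it (DESeq2 adjusted p = 0.263). Ifit1, which binds foreign RNA, stood at 77.0 and 66.3 CPM in KO members and 0 and 11.7 CPM in WT members, against 14.3 and 10.0 CPM in KO and 69.8 and 47.2 CPM in WT Ccl3 cells. Its log2 fold change of 2.15 (SE 0.37, edgeR adjusted p = 0.00187) thus came from the KO tumours, and the WT tumours went the other way on 0 and 1 UMIs in members. Ifi206 and Ifi208 belong to a family of near-identical copies, so their counts may be split between relatives.

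Genes of recirculation and survival were the other named group. S1pr1, the receptor for egress from tissue, stood at 85.2 and 32.4 CPM in KO members and 187 and 81.9 CPM in WT members, against 37.1 and 18.8 CPM in KO and 0 and 9.43 CPM in WT Ccl3 cells. It rose by 1.24 on the log2 scale (SE 0.28, edgeR adjusted p = 0.0166) and was higher in all 4 tumours. Bcl2, which holds off apoptosis, rose by 0.84 (SE 0.22, edgeR adjusted p = 0.0397), higher in 3 of 4 tumours. They were the 2 genes called among 16 naive and memory genes, whose median was 0.16. Gpr18, a lipid receptor of T cells, rose by 1.07 (SE 0.25, edgeR adjusted p = 0.0173). DESeq2 called none of S1pr1, Bcl2 and Gpr18 (DESeq2 adjusted p = 0.275, 0.648 and 0.154). Rgs10, Rnf138, Ssh2, Grap2, Epsti1 and Ifi203 rose by 0.89 to 1.28 and were higher in members of every tumour. DESeq2 called these genes too, except Rgs10 and Ifi203.

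**Figure D3:**
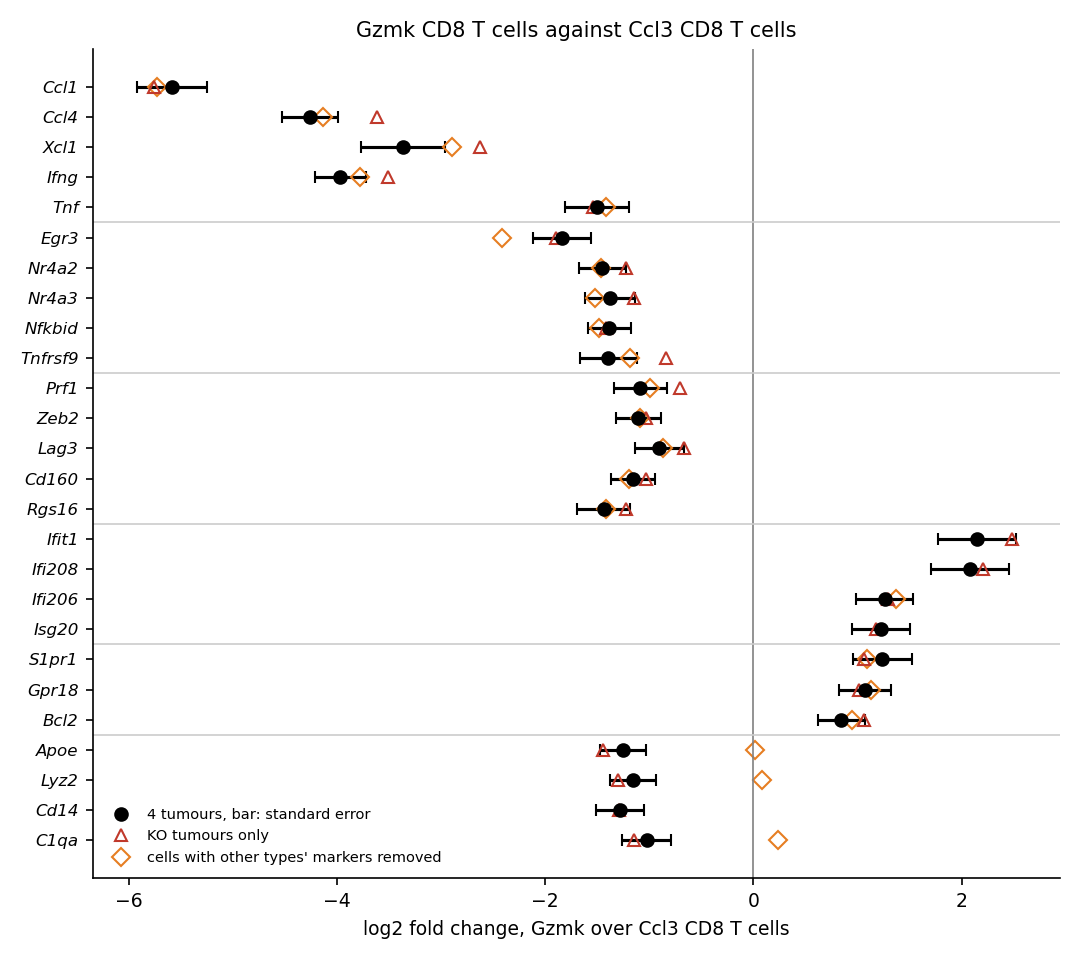
Log2 fold change, Gzmk over Ccl3 CD8 T cells (x axis), for named genes grouped from top to bottom as cytokines and chemokines, receptor-induced genes, cytotoxic and inhibitory genes, interferon-stimulated genes, recirculation and survival genes, and mononuclear phagocyte markers. Black points with standard errors are the fit over 4 tumours, and red triangles the KO tumours alone. Orange diamonds are the fit without cells that carried markers of other types, drawn where the gene was still tested. Apoe, Lyz2 and C1qa, which are among the markers that chose those cells, move to 0 or above in that fit. The T cell genes stay on their side.

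Markers of mononuclear phagocytes moved with this comparison. All 10 markers were detected in KO members, at a summed 1840 and 1316 CPM, and 7 of 10 in WT members, at 701 and 327 CPM. Ccl3 CD8 T cells held 4645 and 2908 CPM in KO and 663 and 424 CPM in WT tumours. Of 9 tested, 6 fell in members, among them Apoe by 1.25, Lyz2 by 1.16 and Cd14 by 1.28 on the log2 scale. When cells of 20000 or more UMIs, or with 10 or more UMIs of phagocyte, fibroblast, neutrophil, endothelial or B cell markers, were left out, 188 and 137 KO members and 9 and 19 WT members remained. Apoe, Lyz2 and C1qa then stood at 0.02, 0.08 and 0.23, none of them called by edgeR. The filter counted UMIs of these same genes, so their move is a description of cells chosen in part on them. Among genes outside the filter's lists, Ifng stood at -3.78, Ccl4 at -4.13, Nr4a3 at -1.52, S1pr1 at 1.09 and Ifi206 at 1.37, all called. This fit called 334 genes of 4385, of which 80 were among the 141, and 10 of the 13 type I interferon genes it tested rose.

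Timp3 and Cald1 rose by 1.63 and 1.53 in members. Cald1 stood at 1189 and 1192 CPM in tumour-marker cells of KO tumours and 1373 and 1253 CPM in those of WT tumours, against 226 and 98.8 CPM in KO members and 281 and 351 CPM in WT members. After the marker filter Cald1 stood at 0.75 (edgeR adjusted p = 0.0962), and Timp3 was no longer tested. S100a8, a neutrophil gene, fell by 2.41, and 98.98% of its 98 UMIs in Ccl3 cells of WT tumour 2 lay in 1 cell.

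The number of calls against Ccl3 cells rested on single libraries. Without WT tumour 1 there were 93 calls and without WT tumour 2 there were 321. Without KO tumour 1 the test took 1478 genes and called 4, and without KO tumour 2 it took 1525 and called 3. Ccl1, Ccl4 and Ifng were called with each tumour left out, and DESeq2 called 39 genes, 38 of them among the 141.

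Against the remaining CD8 T cells, which had neither gene, Gzmk CD8 T cells held more RNA of Gzma and Ccl5 and less of Ccr7, Tcf7, Ccl1 and Xcl1 by edgeR. Of these genes DESeq2 called only Gzma. The edgeR fit was built in the same way over 6085 genes, of which 22 rose and 41 fell (1.04% in all, 0.362% higher and 0.674% lower). Remaining cells had median depths of 4394 and 3346 UMIs in KO and 2287 and 2395 UMIs in WT tumours, below members in KO tumours and in WT tumour 2.

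Gzma, the chromosomal neighbour of Gzmk, was the gene most firmly higher. It stood at 570 and 1413 CPM in KO members and 2946 and 1017 CPM in WT members, against 248 and 404 CPM in KO and 456 and 767 CPM in WT remaining cells. Members were higher in every tumour, by 1.41 on the log2 scale (SE 0.17, edgeR adjusted p = 2.50e-11). The call held with each tumour left out, and 1 cell held 77.8% of Gzma UMIs among members of WT tumour 1 and 57.5% in WT tumour 2, against 19.5% and 20.9% in KO tumours. Gzmb stood at 1402 and 1528 CPM in KO members and 281 and 1193 CPM in WT members, against 913 and 695 CPM in KO and 372 and 572 CPM in WT remaining cells. It was higher in 3 of 4 tumours, by 0.76 (SE 0.17, edgeR adjusted p = 0.00176), but stood at 0.09 (adjusted p = 0.974) with cells thinned to 1000 UMIs.

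Other effector genes rose less. Ccl5 stood at 6849 and 6461 CPM in KO members and 6827 and 4607 CPM in WT members, against 4108 and 5024 CPM in KO and 1881 and 3505 CPM in WT remaining cells. Its log2 fold change was 0.71 (SE 0.12, edgeR adjusted p = 1.22e-05), with members higher in every tumour. Ctla2a, a cysteine protease inhibitor of activated T cells, rose by 0.73 (SE 0.15, edgeR adjusted p = 0.000891). Havcr2 rose by 0.64 (SE 0.16, edgeR adjusted p = 0.00918) but stood at -0.01 in thinned cells. Ifit1 and Isg20 were the called genes among 24 of the type I interferon response, at 0.93 and 0.73, with a list median of 0.23 against -0.02 over all genes. Ifit1 went the other way in both WT tumours, at 0 and 11.7 CPM in members against 44.1 and 14.4 CPM in remaining cells, and Isg20 in 1 of 4 tumours.

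The call of Gzmd and Gzme as higher was set by KO tumour 2. They stood at 300 and 150 CPM in members of KO tumour 1, at 3074 and 1017 CPM in KO tumour 2 and at 0 in both WT tumours, and 97.74% and 96.97% of their UMIs in KO tumour 2 lay in 1 cell. The log2 fold changes of 2.06 and 1.39 became -1.02 and -1.46 after the marker filter, both called lower. These granzymes are near-identical copies, so their counts may be split between relatives. Counting them, 4 of 21 cytotoxic effector genes rose, with a median of 0.01.

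Ccr7 and Tcf7, genes of naive and stem-like T cells, fell. Ccr7, the receptor for entry to lymph nodes, stood at 73.0 and 108 CPM in KO members and 0 and 11.7 CPM in WT members, against 151 and 296 CPM in KO and 269 and 17.2 CPM in WT remaining cells. It was lower in every tumour, by 1.28 on the log2 scale (SE 0.17, edgeR adjusted p = 2.53e-09). In thinned cells Ccr7 stood at -0.34 and was not called (edgeR adjusted p = 0.901). Tcf7 fell by 0.83 (SE 0.19, edgeR adjusted p = 0.00373). Tcf7 stood at 51.9 and 40.1 CPM in KO members and 187 and 81.9 CPM in WT members, against 90.6 and 91.8 CPM in KO and 118 and 101 CPM in WT remaining cells, so WT tumour 1 went the other way. Of 17 naive and memory genes tested 3 fell, with a median of -0.23.

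The chemokines Ccl1 and Xcl1 were lower in members than in remaining cells as well. Ccl1 fell by 3.48 (SE 0.34, edgeR adjusted p = 2.02e-16), lower in 3 of 4 tumours. Xcl1 stood at 42.2 and 30.9 CPM in KO members and 46.8 and 0 CPM in WT members, against 68.2 and 155 CPM in KO and 313 and 31.6 CPM in WT remaining cells. It fell by 1.45 (SE 0.21, edgeR adjusted p = 3.02e-08). Ikzf2, the transcription factor Helios, fell by 0.97 (SE 0.17, edgeR adjusted p = 1.22e-05). The members shared this shortfall of Ccl1 and Xcl1 in both comparisons, which use the same member sums.

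**Figure D4:**
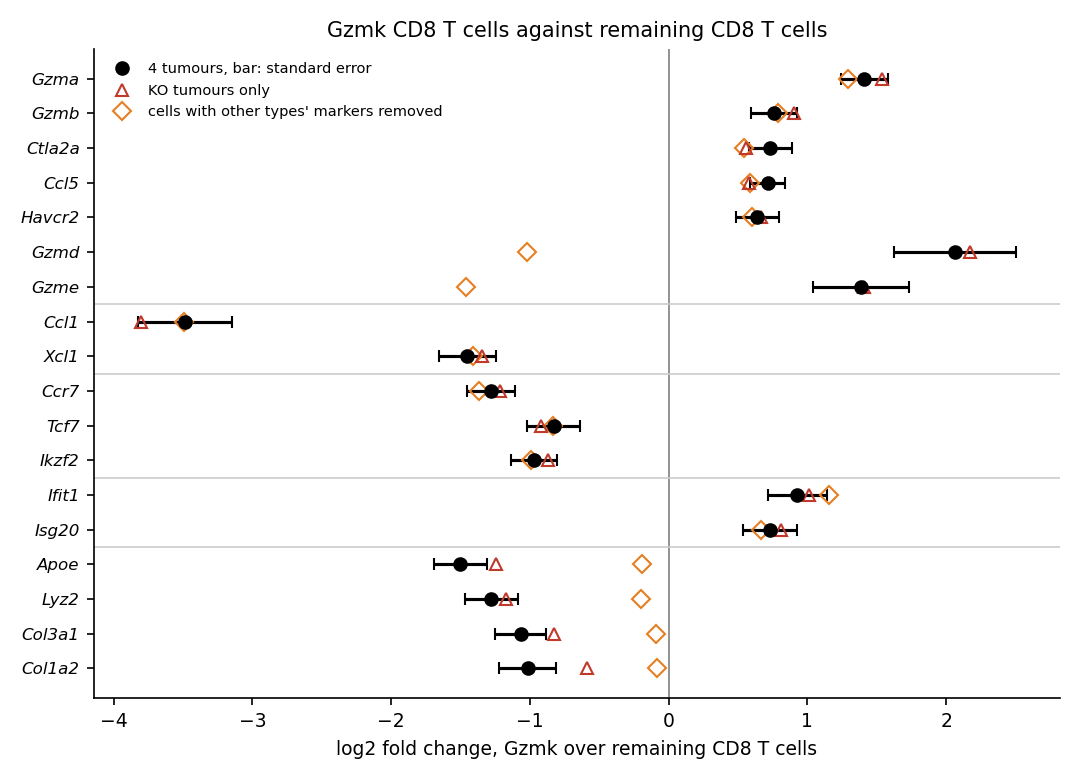
Log2 fold change, Gzmk over remaining CD8 T cells (x axis), for named genes grouped from top to bottom as effector genes, chemokines, naive and memory genes with Ikzf2, interferon-stimulated genes, and markers of phagocytes and fibroblasts. Black points with standard errors are the fit over 4 tumours, and red triangles the KO tumours alone. Orange diamonds are the fit without cells that carried markers of other types. Gzmd and Gzme change sign in that fit. Apoe, Lyz2, Col3a1 and Col1a2, which are among the markers that chose those cells, lie near 0.

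Markers of other cells fell here too. Fibroblast markers came to a summed 2939 and 276 CPM in KO members and 514 and 772 CPM in WT members. Remaining cells held 3350 and 785 CPM of them in KO and 666 and 2520 CPM in WT tumours. Phagocyte markers came to a summed 1840 and 1316 CPM in KO members and 701 and 327 CPM in WT members, against 3323 and 2985 CPM in KO and 720 and 1399 CPM in WT remaining cells. Apoe fell by 1.501 and Lyz2 by 1.28, and of 5 fibroblast markers tested Col1a1, Col1a2 and Col3a1 fell while Postn rose. In KO tumour 1, 90.6% of the 287 Postn UMIs of members lay in 1 cell. After the marker filter Apoe stood at -0.19, Lyz2 at -0.20, Col3a1 at -0.09 and Col1a2 at -0.08, with edgeR calling none of them. The filter counted UMIs of these same genes, so their move is a description of cells chosen in part on them. Gzma stood at 1.29, Ccl5 at 0.58, Gzmb at 0.79, Ccr7 at -1.36 and Tcf7 at -0.83 in that fit, all called. Of the 53 genes it called, 21 were among the 63, and 18 of them went the same way.

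**Figure D5:**
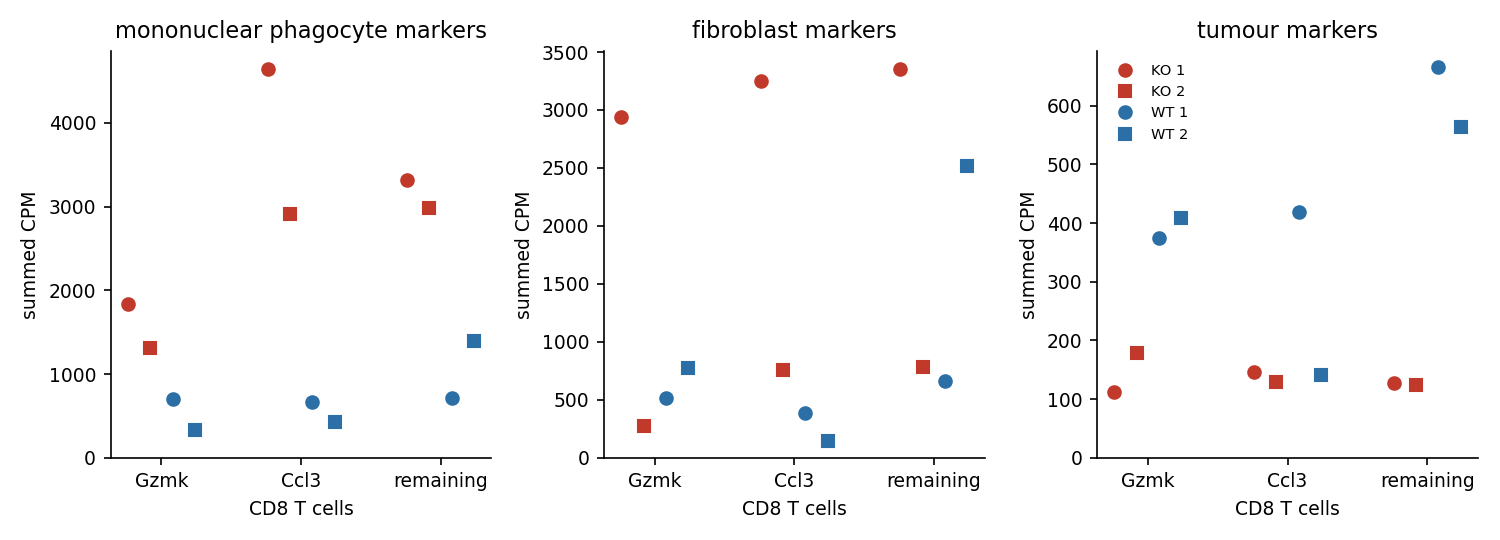
Summed CPM of the marker lists of mononuclear phagocytes, fibroblasts and tumour cells (y axes, each from 0) in Gzmk, Ccl3 and remaining CD8 T cells, for KO tumours 1 and 2 (red) and WT tumours 1 and 2 (blue). Phagocyte markers are highest in Ccl3 cells of KO tumour 1 at 4645 CPM, and tumour markers are higher in members of WT tumours (374 and 409 CPM) than of KO tumours (113 and 179 CPM).

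These calls also depended on the libraries. Without KO tumour 1 there were 8 calls, without KO tumour 2 there were 13, without WT tumour 1 there were 32 and without WT tumour 2 there were 62. DESeq2 called 4 genes, which include Gzma, Apoe, Lyz2 and Col3a1.

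Between KO and WT tumours the members themselves are given without a test, because WT tumour 1 held 9 of them. Among 3101 genes that averaged 50 CPM or more over the 4 sums, 339 were higher and 213 lower in KO members by at least 2-fold with groups that did not overlap (17.8% in all, 10.9% higher and 6.87% lower). Satb1, a chromatin organiser of T cells, stood at 578 and 532 CPM in KO members and 46.8 and 117 CPM in WT members, from 713 and 345 against 1 and 10 UMIs. Lag3, an inhibitory receptor, stood at 290 and 264 CPM in KO members and 93.5 and 58.5 CPM in WT members. Icos, a costimulatory receptor, stood at 1125 and 938 CPM in KO members and 608 and 257 CPM in WT members. For these 3 genes both KO tumours were above both WT tumours. Without WT tumour 2 the number of genes past both conditions was 1276 in place of 552.

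Several genes went the other way. Klf2, the transcription factor of quiescence and recirculation, stood at 152 and 211 CPM in KO members and 468 and 374 CPM in WT members. The immediate early gene Ier2 stood at 160 and 184 CPM in KO members and 514 and 421 CPM in WT members. Nupr1, a stress response gene, stood at 32.4 and 72.5 CPM in KO members and 187 and 503 CPM in WT members. Each was lower in both KO tumours. Nupr1 also stood at 451 and 617 CPM in tumour-marker cells of KO tumours and 875 and 741 CPM in those of WT tumours. Lyz2, a macrophage gene, stood at 590 and 381 CPM in KO members and 93.5 and 81.9 CPM in WT members, and at 8213 and 10952 CPM in KO and 7363 and 6729 CPM in WT C1q macrophages. The part of RNA from other cells in these differences was not tested.

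A test of the same contrast was possible over all non-cycling CD8 T cells, of which the members are a fraction. There 153 genes rose and 97 fell in KO tumours among 10386 (2.41% in all, 1.47% higher and 0.934% lower). Satb1 stood at 587 and 595 CPM in KO and 256 and 284 CPM in WT tumours, a log2 fold change of 1.05 (SE 0.19, edgeR adjusted p = 0.0325). Cxcr6 stood at 558 and 509 CPM in KO and 189 and 265 CPM in WT tumours, a log2 fold change of 1.13 (SE 0.22, edgeR adjusted p = 0.0416). Lag3 rose by 0.97, Icos by 1.20, Nr4a3 by 1.32, Cd27 by 1.01 and Serpinb9, an inhibitor of granzyme B, by 1.18. In each of these genes the level in members was also higher in both KO tumours than in both WT tumours. Among genes that passed the naming rule given below, the largest rises were those of Gzmd and Gzme. Gzmd stood at 531 and 724 CPM in KO and 15.7 and 0 CPM in WT tumours. Gzme stood at 332 and 293 CPM in KO and 7.87 and 0 CPM in WT tumours. In KO tumour 2 Gzmd and Gzme stood at 3074 and 1017 CPM in members and at 74.0 and 56.3 CPM in remaining cells. Nearly all of those member UMIs lay in a single cell, which is part of this class. With doublets removed edgeR still called both genes. Pf4, Cybb and Arg1 came next, at 3.24, 3.15 and 3.13, and the largest fall was that of Nupr1, at -2.69.

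Klf2 fell by 0.81, Ier2 by 1.15 and the chaperone Hspd1 by 0.94 on the log2 scale in the same class, and Klf2 stood at -0.28 and was not called after the marker filter. Of the 5 markers of the members, Gramd3 rose by 1.29 (SE 0.19, edgeR adjusted p = 0.0185) and Itga1 by 1.19 (SE 0.24, edgeR adjusted p = 0.0439). Ly6c2 stood at 725 and 886 CPM in KO and 622 and 628 CPM in WT tumours, and its log2 difference of 0.30 did not pass the test (edgeR adjusted p = 0.433). For Cxcr3 the difference was 0.07 (edgeR adjusted p = 0.925). Gramd3 and Itga1 had no part in choosing this class. With doublets removed Gramd3 stood at 1.15 and Itga1 at 1.10, with adjusted p of 0.247 and 0.281 in edgeR. After the marker filter Itga1 stood at 0.99 (edgeR adjusted p = 0.0923).

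Markers of other cells moved with the groups in that class. Of 10 phagocyte markers 4 rose (Lyz2, C1qa, C1qb and Cd14), with a median of 1.87 against 0.03 over all genes, and 6 of 8 tumour markers fell, with a median of -2.20. The 6 were Crabp2, Hmga2, Krt14, Sox9, Tnnt2 and Tubb3. Cells had been set aside by their UMIs of these same genes, so their fall is a description of cells chosen in part on them. Msln, which had no part in that choice, stood at -2.68 and was not called (edgeR adjusted p = 0.0587). With the marker filter 209 genes were called, 127 of them among the 250, and Satb1, Lag3 and Cxcr6 stood at 0.99, 0.96 and 1.10. With doublets removed these genes stood at 0.85, 0.82 and 0.99, and edgeR called none of them. Without WT tumour 1 edgeR called 0 genes, with 1887 at an unadjusted p under 0.05, without WT tumour 2 it called 3, and with doublets removed it called 2, whereas DESeq2 on all 4 tumours called 273. Leaving out KO tumour 1 gave 468 calls and leaving out KO tumour 2 gave 587.

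The change between KO and WT tumours was also compared between members and Ccl3 CD8 T cells in 1 model. The interaction term was called for 2 of 5080 genes (0.0394% in all, 0.0197% higher and 0.0197% lower). They were Ccl4, at 2.17 on the log2 scale, and Fn1, at -3.56, and DESeq2 called 1 gene. Without KO tumour 1 edgeR called 0 genes, with 38 at an unadjusted p under 0.05, and without KO tumour 2 it called 0, with 68. Without WT tumour 1 it called 136 and without WT tumour 2 it called 9.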

How the data were processed

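Gene by barcode UMI count matrices, 1 per tumour, were used as deposited. Per the labels' protocols, reads had been aligned to mm10 with Cell Ranger 5.0.1 at default settings, while the file headers name Cell Ranger 6.1.2. Seurat 5.1.0 stands in the submitters' processing notes with no role. Barcodes entered with 300 or more genes and 500 or more UMIs, unless over 20% of the UMIs were mitochondrial. The members, gene lists and tests were chosen with earlier results of these data known.

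Raw UMI counts were summed per tumour and cell class, since cells are not replicates. CPM values are UMIs of a gene per 1000000 UMIs of its sum, before TMM. Sums were tested with edgeR 4.0.16 (quasi-likelihood, TMM factors, filterByExpr) in R 4.3.3, with Benjamini-Hochberg adjustment over all genes tested and a threshold of 0.05. Comparisons of cell classes had tumour as a block, because both classes came from the same 4 tumours. Comparisons of KO with WT tumours had 2 sums per group and no block. Numbers of cells in 8 classes were tested the same way, and a single share by an exact permutation test over tumours. The comparison of members between KO and WT tumours was to be left without a test if a tumour held under 10 members, as WT tumour 1 does. No such minimum was set for the comparisons of cell classes and the interaction, which use that tumour's 9 members and 8 Ccl3 cells.

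Genes named from the tests were the 12 largest called changes per direction with a mean of at least 50 CPM and the same sign in all tumours, and the leading genes of each list. Genes given by detection share or beside these were picked with their values known. Where WT tumours had no UMI of a gene, no fold is given. The floor of 3 counts, and exact 95% intervals, cover counting error only. Alternatives were DESeq2 1.42.0, RLE factors, no filter on low counts, removal of the highest Scrublet scores (scanpy 1.11.5, 0.8% per 1000 barcodes), Gzmk of at least 2 UMIs, thinning to 1000 UMIs, leaving out each tumour, and a block by tumour number. The marker filter, KO or WT tumours alone, and crossed pairing were added after the data were seen. Doublet removal, thinning and RLE factors were not planned for KO against WT in all non-cycling CD8 T cells. The fit between KO and WT members was an added alternative too. Doublets were left in otherwise. The scripts were tested on simulated data. Chromosome positions come from the GENCODE annotation of GRCm38.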

Additional observations from a re-analysis of the deposited data

Results flagged for a closer look

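The change between KO and WT tumours differed between Gzmk CD8 T cells and Ccl3 CD8 T cells for Ccl4, by the interaction term of the model fitted to both classes. Ccl4 stood at 397 and 225 CPM in members of KO tumours and 93.5 and 199 CPM in members of WT tumours, from 489 and 146 against 2 and 17 UMIs. In Ccl3 cells it stood at 4169 and 3189 CPM in KO and 6142 and 9969 CPM in WT tumours. The difference of the log2 fold changes was 2.17 (SE 0.35, edgeR adjusted p = 0.00530), and DESeq2 gave an adjusted p of 0.354. With a tumour left out it lay between 1.89 and 2.47, called without WT tumour 1 (edgeR adjusted p = 7.80e-12) and not without KO tumour 1 (1.00), KO tumour 2 (0.629) or WT tumour 2 (0.193).

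The same term was called for Fn1, the gene of fibronectin, which fibroblasts and macrophages make. Fn1 stood at 216 and 46.3 CPM in members of KO tumours and 187 and 468 CPM in members of WT tumours, from 266 and 30 against 4 and 40 UMIs. In Ccl3 cells it stood at 395 and 147 CPM in KO and 34.9 and 84.9 CPM in WT tumours, from 606 and 117 against 1 and 9 UMIs. The difference was -3.56 (SE 0.53, edgeR adjusted p = 0.00280; DESeq2 adjusted p = 0.0206). With a tumour left out it lay between -4.12 and -3.33 and was called by edgeR without WT tumour 1 (adjusted p = 3.12e-10), but not without KO tumour 1 (1.00), KO tumour 2 (0.629) or WT tumour 2 (0.749). The part of RNA from other cells in this value was not tested.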

How the results depend on the processing

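The share of members among kept cells stayed higher in KO tumours under every alternative run, with log2 ratios from 3.34 to 5.00, and from 3.34 to 4.72 with a tumour left out. The call was lost where KO tumour 1 (3.58) or KO tumour 2 (4.14) was missing. Hnrnpa2b1 in tumour-marker cells lay between -0.92 and -0.74 with a tumour left out. Counts of called genes moved more. Against Ccl3 CD8 T cells 141 calls became 39 with DESeq2, 270 with no filter on low counts, 271 with doublets removed, 23 with Gzmk of at least 2 UMIs, 35 after thinning, 334 after the marker filter, 581 in KO tumours only and 3 in WT tumours only, and between 3 and 321 with a tumour left out. The fit with no tumour block called 8. Against remaining CD8 T cells 63 calls became 4 with DESeq2, 97 with no filter, 7 with Gzmk of at least 2 UMIs, 15 after thinning and 2 in WT tumours only, and between 8 and 62 with a tumour left out. Without the tumour block edgeR called 0, with 76 at an unadjusted p under 0.05. Between KO and WT members 552 genes that did not overlap became 1024 with Gzmk of at least 2 UMIs, and between 610 and 1276 with a tumour left out.

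A fit between KO and WT members that accepts the tumour of 9 cells called 38 genes, 19 with DESeq2, 64 with Gzmk of at least 2 UMIs, 129 after the marker filter, 88 with a replicate block, and between 33 and 174 with a tumour left out. It called 0 with RLE factors (674 at an unadjusted p under 0.05), with no filter (916), with doublets removed (454) and after thinning (65). Over all non-cycling CD8 T cells 250 calls became 152 with a replicate block, 2 with doublets removed and 24 after thinning, and between 0 and 587 with a tumour left out, the 0 being without WT tumour 1 (1887 at an unadjusted p under 0.05, and 273 calls by DESeq2 on all tumours). With a replicate block the share kept its call at 3.94. The labels give tumours a number but no shared origin. KO and WT tumours of the same number deviated with a correlation of -0.16 over 10386 genes, and a crossed pairing called 986. The interaction was called for 1 gene by DESeq2 and for between 0 and 136 genes with a tumour left out. In edgeR the 0 came without KO tumour 1 (38 at an unadjusted p under 0.05) and without KO tumour 2 (68). For the counts above, the cause was not tested.

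Signs changed for a few named genes. Against Ccl3 cells Bcl2 stood at -0.00917 in WT tumours only. In that comparison Apoe, Lyz2 and C1qa stood at 0.015, 0.078 and 0.233 after the marker filter, which counted their UMIs. Against remaining cells Havcr2 and Bgn stood at -0.0063 and -0.667 after thinning, and Gzmd and Gzme at -1.02 and -1.46 after the marker filter. Between KO and WT non-cycling CD8 T cells Snhg12 stood at 0.027 after thinning and Fcer1g at -0.241 after the marker filter. Depth limits the WT values most, since 1 UMI was worth 46.8 and 11.7 CPM in WT members.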

Other observations

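Variable segments of the T cell receptor beta chain were read in a minority of members. A Trbv segment was found in 15.0% and 15.7% of members in KO tumours (32 and 23 cells) and in 11.1% and 9.52% in WT tumours (1 and 2 cells). Among KO members with a segment, 10 and 8 had Trbv14, or 31.2% and 34.8%, and 9 and 7 had Trbv12-2, or 28.1% and 30.4%. In KO Ccl3 CD8 T cells with a segment the shares were 26.5% and 34.2% for Trbv14 and 16.3% and 26.3% for Trbv12-2. In KO remaining CD8 T cells they were 15.1% and 34.6% for Trbv14 and 16.3% and 17.3% for Trbv12-2. In KO cycling CD8 T cells they were 16.1% and 36.8% for Trbv14 and 17.7% and 14.0% for Trbv12-2. In other CD3 cells of KO tumours they were 3.49% and 2.30% for Trbv14 and 12.8% and 21.8% for Trbv12-2. These are shares of cells within a tumour, with no test, and Trbv12-2 may share counts with its near-identical neighbour Trbv12-1.

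Members also differed in how near they lay to the limit on cycling genes. Of KO members 116 and 76 had none of the 5 cycling genes, 71 and 44 had 1 UMI and 26 and 27 had 2 UMIs. Of WT members 7 and 16 had none, 0 and 4 had 1 UMI and 2 and 1 had 2 UMIs.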
